A study of Mus musculus with 33 samples.

Results

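The 10 genes described here encode neuropeptides that the mouse brain makes mainly outside the cortex or in scattered cortical cells: *Gal* (galanin), *Avp* (vasopressin), *Oxt* (oxytocin), *Trh* (thyrotropin-releasing hormone), *Crh* (corticotropin-releasing hormone), *Nts* (neurotensin), *Adcyap1* (PACAP), *Grp* (gastrin-releasing peptide), *Tac2* (neurokinin B) and *Cartpt* (the CART peptides). They were chosen by symbol and make up 10 of the 23366 gene rows of each count table. RNA-Seq was performed on frontal cortex of C57BL/6 offspring at about 1 month of age. Dams were exposed during gestation, and again with their pups after birth, to 1 of 3 atmospheres: filtered air, aerosol from an e-cigarette liquid holding nicotine at 13 to 16 mg/mL, or aerosol from a nicotine-free liquid. One pup per litter was sequenced, so each library is a separate animal from a separate litter. The 16 libraries labelled female comprised 6 air, 5 nicotine and 5 no nicotine animals, and the 17 labelled male comprised 6 air, 6 nicotine and 5 no nicotine animals. The sexes were sequenced in separate runs, so sex and run cannot be told apart, and groups were compared within a sex. No group carries a transgene or deletion, and air was the control throughout. *Gal* was among the genes the study picked from these libraries for follow-up.

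Neuropeptides are cut from larger precursor proteins, packed into dense-core vesicles and released to act on G protein-coupled receptors, usually over longer distances and times than fast transmitters. Vasopressin and oxytocin are classical products of magnocellular neurons in the paraventricular and supraoptic nuclei of the hypothalamus, and TRH and CRH are releasing hormones of the paraventricular nucleus that other neurons also make. Galanin is made in the hypothalamus, the locus coeruleus and parts of the basal forebrain. Neurotensin, CART, CRH, PACAP, neurokinin B and gastrin-releasing peptide also occur in neurons of cortex, amygdala or striatum.

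Total counts per library ran from 17845672 to 27513174. One library, labelled male nicotine replicate 21, had *Xist* at 219 CPM (counts scaled to the library total) and 1 count over *Uty*, *Kdm5d*, *Eif2s3y* and *Ddx3y* of the Y chromosome, whereas the other libraries labelled male had at least 2140 such counts. It is called here by its label, and the members' male nicotine results against air are given with and without it. Female air replicate 2 also stood apart for *Avp* and *Oxt*, as described below. The tissue label was set beside marker lists, which were chosen with earlier results of these data known. The 10 markers of cortical glutamatergic neurons summed to 1167 to 4088 CPM per library, and the 12 hypothalamus markers to 3.30 to 16.5 CPM. No marker of the lists used was at 0 in every library of a table. Of the hypothalamic markers *Hcrt*, *Pmch* and *Agrp*, none had more than 14 counts in any library. Others of the list reached more: *Sim1* 129 counts in females and 143 in males, *Pomc* 114 and 83, and *Fezf1* 75 and 74.

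*Avp* and *Oxt* lie next to each other on chromosome 2 in opposite orientation and share part of the neurophysin-coding sequence. Of all stretches of 50 bases, the length of the reads, 14.8% in the *Avp* transcript and 16.0% in the *Oxt* transcript also occurred in the other gene. The other 8 members had no such stretch in common with another gene. These stretches come from a run of 127 transcript bases that is the same in both genes, and reads that fall inside it cannot be assigned to one of the 2 genes by sequence. Its part within exon 2 of 3 of each gene is printed for that reason. This part lies at mm9 chr2:130406869-130406993 on the minus strand for *Avp* and at chr2:130402327-130402451 on the plus strand for *Oxt*, and is 125 bases long. The other 2 bases of the run lie across the exon junction.
Avp and Oxt, shared run within exon 2: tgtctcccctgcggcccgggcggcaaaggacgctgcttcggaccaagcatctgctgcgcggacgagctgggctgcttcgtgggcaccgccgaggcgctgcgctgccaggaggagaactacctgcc

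For the 3 members that passed the test in any comparison with air below, the 250 bases before the transcription start in RefSeq (build GRCm38.p6, 5′ to 3′ on the strand of the gene) were searched on both strands for the full cAMP response element TGACGTCA, its shorter core TGACG, the TATA sequence TATAAA, the nuclear receptor core TGACC and the STAT sequence TTCNNNGAA. The full element contains the core, so a full match is also a match to the core. Matches are in capitals. The *Gal* window is chr19:3414545-3414794 (minus strand), the *Nts* window chr10:102490419-102490668 (minus strand) and the *Oxt* window chr2:130575919-130576168 (plus strand).
Gal: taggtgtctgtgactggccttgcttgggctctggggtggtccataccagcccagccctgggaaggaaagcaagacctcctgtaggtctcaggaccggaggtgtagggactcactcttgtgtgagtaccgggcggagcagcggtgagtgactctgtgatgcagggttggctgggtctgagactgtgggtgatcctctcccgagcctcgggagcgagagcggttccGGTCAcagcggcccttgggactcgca
Nts: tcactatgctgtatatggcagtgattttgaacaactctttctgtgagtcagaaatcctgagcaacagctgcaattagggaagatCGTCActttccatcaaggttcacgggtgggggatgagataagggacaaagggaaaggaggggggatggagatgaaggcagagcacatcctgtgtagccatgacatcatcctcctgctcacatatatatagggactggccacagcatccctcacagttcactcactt
Oxt: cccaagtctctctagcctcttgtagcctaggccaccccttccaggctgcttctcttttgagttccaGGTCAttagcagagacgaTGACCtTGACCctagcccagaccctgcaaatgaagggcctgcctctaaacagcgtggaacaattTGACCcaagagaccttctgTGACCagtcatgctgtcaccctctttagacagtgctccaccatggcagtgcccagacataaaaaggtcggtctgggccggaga
The *Oxt* window held 5 matches to TGACC, the *Gal* window 1 match to TGACC, and the *Nts* window 1 match to TGACG. Of the 32851 windows of all genes, 35.2% held TGACC and 17.8% held TGACG. Entries were given for 8 of the 10 members. Among these, TGACC was found for *Cartpt*, *Gal*, *Oxt* and *Trh*, TGACG for *Adcyap1*, *Cartpt*, *Nts* and *Trh*, TGACGTCA for *Cartpt* (1.55% of all windows), TATAAA for *Adcyap1* (12.4%) and TTCNNNGAA for none (7.02%).

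In air the members differed widely in level. Per kilobase of exon, mean levels in female air ran from 23.0 CPM per kb for *Cartpt* through 14.1 for *Nts*, 12.2 for *Adcyap1*, 7.87 for *Crh*, 6.86 for *Tac2*, 2.74 for *Trh*, 2.65 for *Grp*, 1.40 for *Avp* and 1.07 for *Oxt* to 0.196 for *Gal*. The means of neighbours in that order differed by less than the larger of their SDs for *Nts* and *Adcyap1*, for *Crh* and *Tac2*, and for each step from *Trh* down to *Gal*, and by more for the others. Male air had the same order except that *Tac2* (8.29 CPM per kb) stood before *Crh* (6.87), and there *Nts* and *Adcyap1* differed by more than the larger SD. *Crh* and *Trh* (4.56), neighbours in male air, differed by less than the larger SD (3.53, of *Trh*). *Cartpt* was also the most even, with a coefficient of variation of 8.76% over female air and 4.88% over male air, against 161% and 94.4% for *Avp*. Raw counts were low for *Gal* (2 to 74 in females, 2 to 94 in males), *Avp* (3 to 174 and 1 to 159), *Oxt* (1 to 108 and 0 to 91) and *Grp* (11 to 84 and 25 to 77). *Trh* ranged from 43 to 670 and 48 to 542 counts, *Tac2* from 77 to 215 and 78 to 181, and *Crh* from 176 to 311 and 128 to 276. *Nts* (268 to 902 and 365 to 897), *Adcyap1* (245 to 743 and 274 to 606) and *Cartpt* (418 to 786 and 348 to 1104) had the most reads. All 10 passed the filter of 5 CPM summed over the libraries of a table. *Gal*, *Avp* and *Oxt* would not have passed on their air libraries alone, where their CPM summed to 0.837, 4.84 and 3.44 in females and 1.70, 4.33 and 2.33 in males.

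Galanin (*Gal*, mm9 chr19:3409919-3414472, minus strand, 6 exons) had the largest fold changes of the members in both female comparisons with air. In males without nicotine its log2 fold change (2.59) and that of *Oxt* (2.54) differed by less than their SEs, and in limma-voom *Oxt* (3.18) was above *Gal* (2.70). In female air *Gal* lay between 0.0727 and 0.341 CPM (median 0.106, 2 to 8 counts). With nicotine the 5 females had 1.32, 2.77, 0.394, 1.57 and 0.777 CPM (9 to 53 counts), and without nicotine 0.651, 3.61, 2.97, 1.26 and 2.72 CPM (16 to 74 counts). Every exposed female was above every female air animal. In the edgeR quasi-likelihood fit *Gal* was 9.02-fold higher with nicotine (log2 fold change 3.17 ± 0.62 SE, adjusted p = 0.00407) and 14.8-fold higher without nicotine (3.88 ± 0.57, adjusted p = 0.000841), and exact two-sided permutation tests gave p = 0.00433 for each, the smallest that 6 against 5 libraries allow. The nicotine call did not pass the threshold of 0.01 without air replicate 4, 5 or 6 or without nicotine replicate 1 or 2, where the adjusted p lay between 0.01028 and 0.0137 and the log2 fold change between 2.77 and 3.18. The call without nicotine passed on leaving out any single library (adjusted p at most 0.00365).

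In male air *Gal* lay between 0.0879 and 0.574 CPM (median 0.245, 2 to 12 counts). The 5 males exposed without nicotine had 1.94, 1.41, 3.95, 0.694 and 0.814 CPM (14 to 94 counts), all above every male air animal, and *Gal* was 6.02-fold higher (log2 fold change 2.59 ± 0.48 SE, adjusted p = 0.000796, exact permutation p = 0.00433). The 6 males exposed with nicotine lay between 0.560 and 1.85 CPM (median 0.763, 10 to 39 counts), and 5 of them were above every male air animal. Their log2 fold change was 1.63 ± 0.51 and did not pass (adjusted p = 0.143, exact permutation p = 0.00433). Replicate 21 held the highest *Gal* of the 6, and on leaving it out the log2 fold change fell to 1.29 (adjusted p = 0.281). The same library had the highest summed level of the 4 olfactory bulb markers (121 CPM, against 23.0 to 43.4 in the other male nicotine libraries) and of the 6 brainstem monoamine markers (21.97 CPM, against 6.33 to 10.5). Their part in the *Gal* level was not tested.

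Vasopressin (*Avp*, mm9 chr2:130406356-130408290, minus strand), oxytocin (*Oxt*, chr2:130401909-130402790, plus strand) and TRH (*Trh*, chr6:92192055-92194644, minus strand) had positive log2 fold changes in all 4 comparisons with air, and 1 of these 12 passed. *Oxt* in male air lay between 0 and 0.957 CPM (median 0.251), and male air replicate 37 had 0 counts, which with the floor of a count of 0 (3 counts) allows up to 0.156 CPM. The 5 males exposed without nicotine had 1.99, 3.27, 3.82, 1.44 and 1.29 CPM, all above air. *Oxt* was 5.80-fold higher in them (log2 fold change 2.54 ± 0.57 SE, adjusted p = 0.00339, exact permutation p = 0.00433). The call did not pass without air replicate 31 or 38 or no nicotine replicate 3 or 4 (adjusted p of 0.01001 to 0.0120). In the male nicotine group *Oxt* lay between 0.565 and 4.69 CPM (median 1.56), with 4 of 6 animals above every air animal and a log2 fold change of 2.22 ± 0.57 (adjusted p = 0.0885; 2.16 and 0.156 without replicate 21).

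In female air *Oxt* lay between 0.0421 and 2.17 CPM (median 0.125). The nicotine females had 2.69, 3.97, 0.394, 2.74 and 0.491 CPM and the no nicotine females 2.07, 5.49, 3.89, 0.671 and 1.74 CPM, so both exposed groups overlapped air. The log2 fold changes were 1.78 ± 0.79 (adjusted p = 0.148) and 2.21 ± 0.76 (adjusted p = 0.0414). *Avp* in female air lay between 0.109 and 3.45 CPM (median 0.321), with 0.438 to 4.62 CPM with nicotine (log2 fold change 1.47 ± 0.81, adjusted p = 0.248) and 0.755 to 6.98 CPM without (1.76 ± 0.78, adjusted p = 0.113). For both peptides 1 control was the highest of its group: female air replicate 2 had 81 *Avp* and 51 *Oxt* counts, against 3 to 8 and 1 to 20 in the other female air libraries. Its summed hypothalamus markers were at 6.65 CPM, against 8.25, 5.06, 3.37, 3.31 and 3.30 CPM in the other female air libraries. The part of hypothalamic tissue in these levels was not tested. Without air replicate 2 *Avp* no longer overlapped air in either exposed group, whereas *Oxt* still did in both (air replicate 1 at 0.902 CPM). The log2 fold changes with nicotine were then 3.01 for *Avp* and 2.99 for *Oxt* (adjusted p of 0.0280 and 0.0333), and without nicotine 3.29 and 3.41, both past the threshold (adjusted p of 0.00857 and 0.00797). Without no nicotine replicate 3, in contrast, the log2 fold change of *Avp* without nicotine was 1.08 (adjusted p = 0.398).

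In males *Avp* lay between 0.0520 and 1.63 CPM (median 0.620) in air, between 0.770 and 8.58 CPM (median 1.98) with nicotine, and at 1.80, 6.89, 0.967, 2.58 and 2.35 CPM without. Air overlapped with both exposed groups, and the log2 fold changes were 2.29 ± 0.71 (adjusted p = 0.137; 2.49 and 0.159 without replicate 21) and 1.98 ± 0.74 (adjusted p = 0.0589; 1.37 and 0.227 without no nicotine replicate 3). *Trh* in females lay between 1.82 and 5.36 CPM (median 4.22) in air, at 10.6, 14.0, 2.94, 10.3 and 2.58 CPM with nicotine and at 4.43, 34.0, 12.2, 7.09 and 16.5 CPM without. The nicotine group fell into 3 animals above every air animal and 2 inside the air range. *Trh* missed the threshold narrowly without nicotine (log2 fold change 1.89 ± 0.49, adjusted p = 0.0102) and did not pass with nicotine (1.03 ± 0.51, adjusted p = 0.200). In males *Trh* lay between 1.97 and 13.8 CPM (median 4.07) in air, 3.11 and 16.3 CPM (median 9.67) with nicotine and 8.33 and 22.8 CPM (median 13.3) without. Neither change passed (0.58 ± 0.44, adjusted p = 0.603, or 0.36 without replicate 21; and 1.23 ± 0.45, adjusted p = 0.0513).

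**Figure D1:**
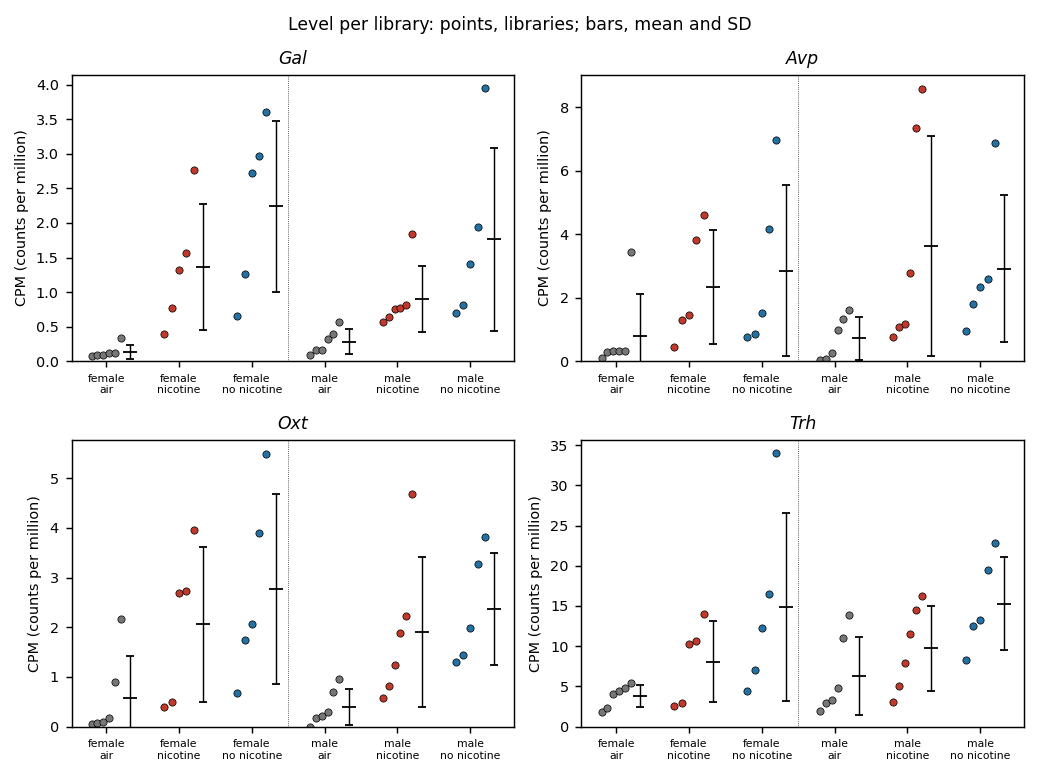
CPM of *Gal*, *Avp*, *Oxt* and *Trh* on a linear axis by sex and treatment, with 1 point per library and bars for the mean and SD (drawn down to 0 where the SD passes below it). The exposed *Gal* points lie above all air points in 3 of the 4 comparisons, and 1 female air point stands at 3.45 CPM for *Avp* and 2.17 CPM for *Oxt*.

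Neurotensin (*Nts*, mm9 chr10:101944394-101953052, minus strand) was the other member that passed, in females. *Nts* in female air lay between 11.4 and 25.8 CPM (median 16.1). The nicotine females had 31.6, 44.1, 24.3, 30.02 and 32.5 CPM, 4 of them above every air animal. The no nicotine females had 25.9, 44.8, 33.4, 37.8 and 37.3 CPM, all above air on this scale. After TMM normalization no nicotine replicate 1 (log2 CPM 4.7002) lay just below air replicate 3 (4.7025), so the groups overlapped. *Nts* was 1.90-fold higher with nicotine (log2 fold change 0.93 ± 0.18 SE, adjusted p = 0.00467, exact permutation p = 0.00866) and 2.07-fold higher without (1.05 ± 0.18, adjusted p = 0.00119, exact permutation p = 0.00866). The nicotine call did not pass without air replicate 2, 4 or 6 or nicotine replicate 1, 2 or 6 (adjusted p of 0.0111 to 0.0173). In males *Nts* lay between 14.8 and 28.3 CPM in air (median 19.8), 21.4 and 33.7 with nicotine (median 27.0), and at 34.6, 39.6, 29.5, 23.4 and 23.8 CPM without, and neither change passed in edgeR (log2 fold change 0.39 ± 0.15, adjusted p = 0.233, or 0.46 and 0.205 without replicate 21; and 0.54 ± 0.16, adjusted p = 0.0166). The change without nicotine did pass with DESeq2 (adjusted p = 0.0063) and limma-voom (adjusted p = 0.00714).

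*Cartpt* (mm9 chr13:100668439-100670638, minus strand), whose peptides act on feeding and reward, lay between 17.6 and 22.3 CPM in female air, and 4 of 5 females of each exposed group were above that range. Its log2 fold changes in females were 0.46 ± 0.14 with nicotine (adjusted p = 0.0356) and 0.50 ± 0.14 without (adjusted p = 0.0138). In males it lay between 19.8 and 22.3 CPM in air and at 34.0, 48.7, 35.5, 17.6 and 26.1 CPM without nicotine (log2 fold change 0.56 ± 0.17, adjusted p = 0.0200), and the nicotine males did not pass (0.15 ± 0.16, adjusted p = 0.740; 0.15 and 0.783 without replicate 21). *Tac2* (chr10:127162448-127168823, plus strand), the neurokinin B precursor, had a log2 fold change of 0.51 ± 0.16 in no nicotine females (adjusted p = 0.0308) and between -0.04 and 0.05 in the other comparisons with air.

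*Crh* (mm9 chr3:19593401-19595396, minus strand), *Adcyap1* (chr17:93598762-93604825, plus strand) and *Grp* had negative log2 fold changes in the 4 comparisons with air, and none passed. *Grp* in female air lay between 2.13 and 3.79 CPM and with nicotine at 2.15, 1.46, 1.67, 1.57 and 0.450 CPM, 0.501-fold of air (adjusted p = 0.0478, exact permutation p = 0.00433). The highest exposed and the lowest air animal overlapped in CPM. After TMM normalization they did not (log2 CPM 1.11 in nicotine replicate 1 and 1.19 in air replicate 2). *Adcyap1* had log2 fold changes of -0.44 ± 0.18 and -0.57 ± 0.19 in females and -0.45 ± 0.16 and -0.13 ± 0.16 in males, with and without nicotine (smallest adjusted p = 0.0335). Without replicate 21 the log2 fold changes in nicotine males were -0.46 for *Adcyap1*, -0.12 for *Grp*, -0.27 for *Crh* and -0.08 for *Tac2* (smallest adjusted p = 0.244). *Crh*, whose peptide starts the hormonal stress response, lay between 8.35 and 13.3 CPM over all female libraries, and its log2 fold changes lay between -0.26 and -0.10.

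**Figure D2:**
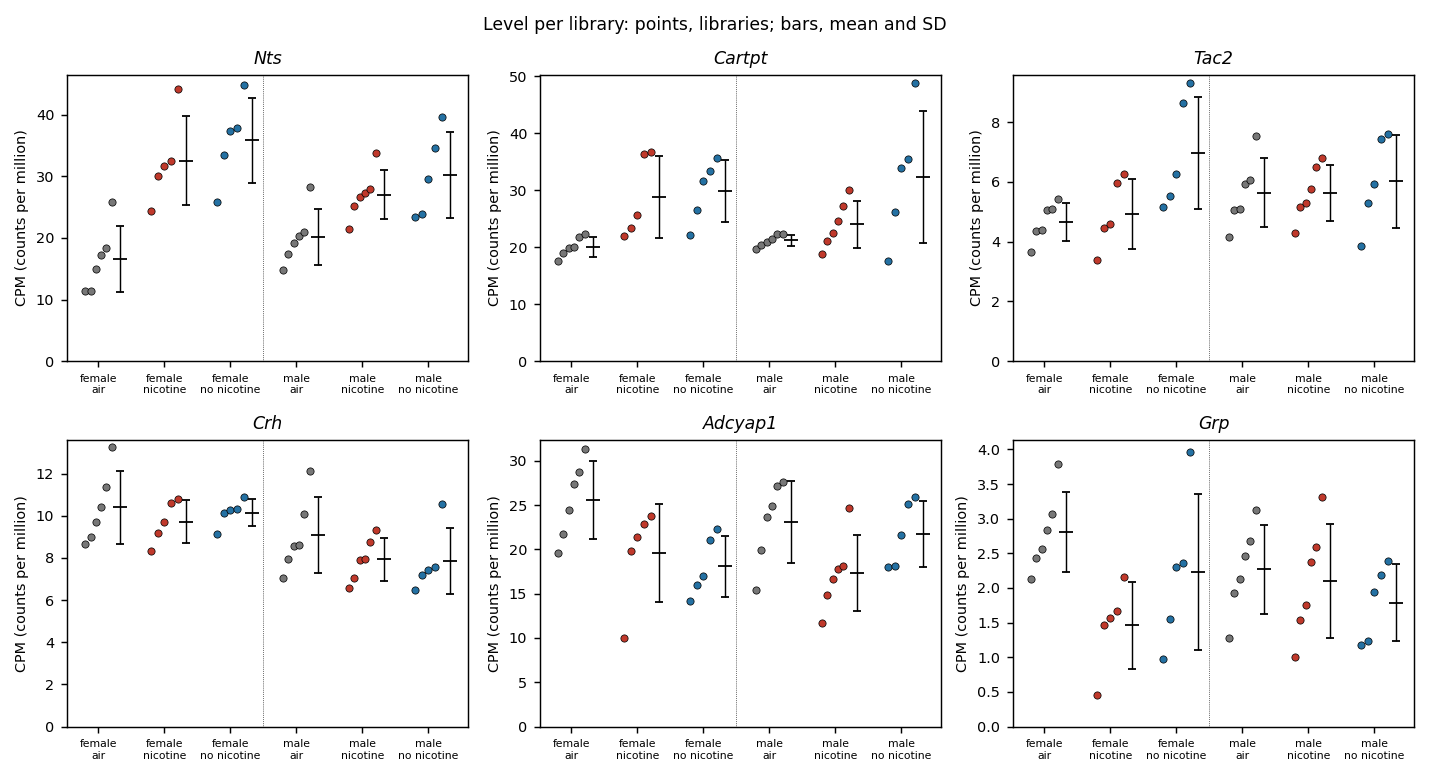
CPM of *Nts*, *Cartpt*, *Tac2*, *Crh*, *Adcyap1* and *Grp* on a linear axis by sex and treatment, with 1 point per library and bars for the mean and SD. *Nts* lies at 11.4 to 25.8 CPM in female air and at 24.3 CPM or more in exposed females, whereas *Crh* overlaps between all groups of a sex.

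Against all genes tested, the members' calls were as follows. With nicotine in females 2 of 10 members were called higher and 0 lower, where 1.98% of 15158 genes were called higher and 2.32% lower. Without nicotine in females 2 were called higher and 0 lower, against 5.03% and 7.03% of genes. In nicotine males 0 members were called by edgeR, as were 0% of 15293 genes in either direction. At an unadjusted p below 0.05 there were 2203 genes in that comparison, and 5 members (*Gal*, *Avp*, *Oxt*, *Nts* and *Adcyap1*) among them. DESeq2 called 159 genes there and limma-voom 0, with 0 members by either. Without nicotine in males 2 members were called higher and 0 lower, against 6.15% and 7.47% of genes. In CPM without TMM factors, every exposed library was above every air library for 1 member (*Gal*) in nicotine females, where this held for 4.6% of genes, for 2 (*Gal* and *Nts*) in no nicotine females (8.15%), for 0 in nicotine males (1.37%) and for 2 (*Gal* and *Oxt*) in no nicotine males (8.42%). After TMM normalization *Nts* overlapped air in no nicotine females. The comparisons of a sex share their air libraries, so the 2 exposed groups are not independent of each other. In bulk tissue, more cells of a type and more RNA per cell cannot be told apart.

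**Figure D3:**
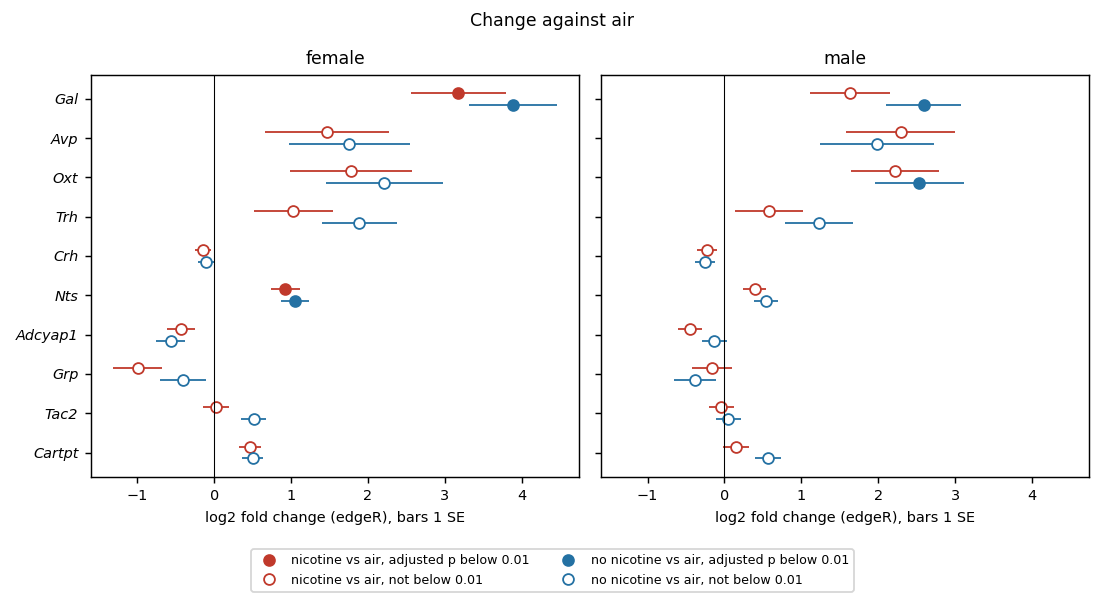
Log2 fold change against air from edgeR for the 10 members, females left and males right, with bars of 1 SE. Filled points passed an adjusted p of 0.01: *Gal* and *Nts* in both female comparisons, and *Gal* and *Oxt* in males without nicotine.

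The nicotine and no nicotine groups were also compared with each other. No member was called in either sex, where 0% of genes were called higher and 0% lower in females and 0.222% higher and 0.0262% lower in males. At an unadjusted p below 0.05 there was 1 member in females, *Tac2* (log2 fold change, nicotine against no nicotine, -0.49 ± 0.17, adjusted p = 0.574), and 2 in males, *Gal* (-0.96 ± 0.41, adjusted p = 0.196) and *Cartpt* (-0.41 ± 0.17, adjusted p = 0.171), where 3071 of 15293 genes were below that p. Without replicate 21 the values of *Gal* and *Cartpt* were -1.30 and -0.42 (adjusted p of 0.109 and 0.232), and *Gal* was at -0.42 without no nicotine replicate 4. In females *Gal* differed by -0.71 ± 0.43 (adjusted p = 0.669). In females 1267 genes were below an unadjusted p of 0.05, and DESeq2 and limma-voom called 0 genes. In males DESeq2 called 456 genes and limma-voom 59, with no member by either. The change against air was compared between the sexes in 1 fit of all 6 groups on 15105 genes, and 0% of genes and no member passed for either exposure. The male minus female difference of the log2 fold change of *Gal* was -1.55 ± 0.91 with nicotine (adjusted p = 0.825; -1.90, unadjusted p = 0.0448 and adjusted p = 0.811 without male nicotine replicate 21) and -1.30 ± 0.89 without (adjusted p = 0.949). With nicotine *Nts* differed by -0.54 ± 0.25 (unadjusted p = 0.0396, adjusted p = 0.762), and with all libraries no other member was below 0.05 unadjusted for either exposure. Unadjusted p was below 0.05 for 978 genes with nicotine and 742 without, and DESeq2 called 1 and 0 genes, none of them a member.

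Within groups, the libraries high in one peptide were in part high in another. Over log2 CPM less the group mean, 90 relations (45 pairs of members in 2 sexes) were computed, with permutation p adjusted over them. In the 16 female libraries *Gal* and *Trh* had Pearson r = 0.822 (permutation p = 9.00e-05, adjusted p = 0.00810) and Spearman rho = 0.791 (permutation p = 0.00057, adjusted p = 0.0252), and r = 0.738 without the 2 libraries farthest from the median of *Gal*. In the 17 male libraries the same pair had r = 0.554 (permutation p = 0.0209, adjusted p = 0.131) and rho = 0.539 (permutation p = 0.0272, adjusted p = 0.136), and r = 0.467 without the 2 farthest. *Gal* and *Avp* had r = 0.758 in females (permutation p = 0.00058, adjusted p = 0.0173), rho = 0.768 (permutation p = 0.00068, adjusted p = 0.0252) and r = 0.800 without the 2 farthest, and r = 0.177 in males. *Avp* and *Oxt*, which share sequence, had r = 0.796 in females (permutation p = 0.00021, adjusted p = 0.00945; rho = 0.676, permutation p = 0.0053, adjusted p = 0.0541; r = 0.701 without the 2 farthest) and r = 0.676 in males (permutation p = 0.00232, adjusted p = 0.0418; rho = 0.576, permutation p = 0.0175, adjusted p = 0.105; r = 0.512 without the 2 farthest). Of the 90 relations, 5 had an adjusted p of r below 0.05, the fifth being *Trh* and *Grp* in males (r = 0.742, permutation p = 0.00077, adjusted p = 0.0173; rho = 0.743, permutation p = 0.00084, adjusted p = 0.0252; r = 0.640 without the 2 farthest).

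Among 13721 genes with a mean of at least 1 CPM in both tables, the 5 whose deviations from the group means were most like those of *Gal*, by the smaller of the Pearson r over the 16 female and the 17 male libraries, were *Nap1l5* (0.834 and 0.870), *Itih3* (0.864 and 0.832), *Gabrq* (0.858 and 0.816), *Pcbd1* (0.811 and 0.830) and *Arl10* (0.837 and 0.810). The libraries share depth and composition, and these values are a description of likeness. Of the other members *Oxt* ranked 220, *Tac2* 257 and *Trh* 258 in the same order, and *Cartpt* 1367, *Avp* 2339, *Grp* 2750, *Crh* 3931, *Adcyap1* 5406 and *Nts* 5742.

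Receptors of the members were followed in a list of 18 genes, of which 14 were tested in females and 15 in males. With nicotine in females 1 was called higher and 0 lower, without nicotine in females 4 higher and 2 lower, in nicotine males 0, and without nicotine in males 4 higher and 1 lower. Of all genes tested, 1.98% were called higher and 2.32% lower, 5.03% and 7.03%, 0% and 0%, and 6.15% and 7.47% in that order. The medians of the log2 fold change were 0.05, 0.35, 0.06 and 0.17, against 0.00, 0.01, 0.01 and 0.02 over all genes tested. *Tacr3*, the neurokinin B receptor, had mean levels of 6.49 ± 2.68 CPM (SD, n = 6) in female air, 16.8 ± 4.89 (n = 5) with nicotine and 21.4 ± 7.35 (n = 5) without, and was called higher in both female comparisons (log2 fold changes 1.32 ± 0.29 SE and 1.65 ± 0.29, adjusted p of 0.00801 and 0.00114) and in males without nicotine (1.46 ± 0.17, adjusted p = 2.15e-05). *Galr1*, a galanin receptor, was called higher without nicotine in females (1.65 ± 0.41, adjusted p = 0.00795) and males (1.56 ± 0.29, adjusted p = 0.000770). *Avpr1a*, a vasopressin receptor, was also called higher without nicotine in females (2.41 ± 0.37, adjusted p = 0.000841) and males (1.41 ± 0.33, adjusted p = 0.00472). *Crhr1*, the main CRH receptor of cortex, was called lower without nicotine in females (-0.79 ± 0.14, adjusted p = 0.00114) and males (-0.42 ± 0.10, adjusted p = 0.00582).

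Of 4 genes that bind or clear the peptides, 2 were called lower in each comparison with air except in nicotine males, where none was. They were *Trhde*, the enzyme that degrades TRH (log2 fold changes -0.59 ± 0.11, -0.60 ± 0.11 and -0.49 ± 0.11, largest adjusted p = 0.00328), and *Sort1*, sortilin, which binds neurotensin (-0.35 ± 0.08, -0.51 ± 0.08 and -0.42 ± 0.06, largest adjusted p = 0.00917). The median of the 4 was -0.39, -0.41, -0.20 and -0.42, in the order female nicotine, female no nicotine, male nicotine and male no nicotine. Of 14 genes for precursor processing and dense-core vesicles, 0 were called higher and 2 lower, 1 and 2, 0 and 0, and 2 and 4 in that order, with medians of -0.11, -0.09, -0.08 and -0.05. The shares over all genes tested were 1.98% higher and 2.32% lower, 5.03% and 7.03%, 0% and 0%, and 6.15% and 7.47%. *Cadps2*, which primes dense-core vesicles, and *Pcsk2*, a prohormone convertase, were lower in the 3 comparisons with calls (in females without nicotine by -0.76 ± 0.16 and -0.66 ± 0.10). *Qpct*, which forms the pyroglutamate end of peptides such as TRH and neurotensin, was higher without nicotine (0.52 ± 0.12 in females and 0.45 ± 0.07 in males). *Chgb*, a granin of these vesicles, was lower in males without nicotine (-0.60 ± 0.09, adjusted p = 0.000145). Of 9 other forebrain neuropeptides, 1 was called higher and 1 lower, 2 and 3, 0 and 0, and 2 and 2 (medians -0.15, -0.09, 0.03 and 0.03). *Tac1* was higher in the 3 comparisons with calls and *Vip* lower (in females without nicotine 0.72 ± 0.17 and -0.80 ± 0.13), *Cck* was lower without nicotine (-1.30 ± 0.28 in females and -0.87 ± 0.18 in males), and *Pdyn* was higher in males without nicotine (0.72 ± 0.19, adjusted p = 0.00863).

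Summed markers of other brain regions and cell types differed between the same groups. The 8 basal forebrain cholinergic markers summed to 22.7 to 89.5 CPM in female air, 91.9 to 213 with nicotine and 116 to 310 without, and to 40.8 to 87.8, 105 to 158 and 126 to 264 CPM in males. The groups of a sex exposed to either aerosol did not overlap air. All 8 were called higher in the 2 female comparisons and in males without nicotine, and 0 in nicotine males (median log2 fold changes 1.65, 2.12, 1.02 for nicotine males and 1.58). Over all genes tested the shares called higher were 1.98%, 5.03%, 0% for nicotine males and 6.15%. In females without nicotine *Ngfr* changed by 2.93 ± 0.43, *Gbx1* by 2.52 ± 0.35, *Lhx8* by 2.24 ± 0.35 and *Chat*, the enzyme that makes acetylcholine, by 2.15 ± 0.28. The 12 hypothalamus markers summed to 3.30 to 8.25, 4.21 to 9.61 and 5.90 to 14.6 CPM in female air, nicotine and no nicotine, and to 3.47 to 6.89, 5.37 to 9.66 and 6.69 to 16.5 CPM in males. Of the 6 tested in females and 5 in males, *Fezf1* was called, without nicotine (2.37 ± 0.37 in females and 1.67 ± 0.39 in males). The others did not pass. Without nicotine *Gnrh1* changed by 2.56 in females and 1.84 in males, *Otp* by 1.79 and 1.42, and *Sim1* by 1.79 and 1.78. *Pomc* changed by 0.23 and 0.31, and *Kiss1*, tested in females alone, by -1.58. Their medians were 1.01, 1.79, 0.85 and 1.67, and *Hcrt*, which marks hypothalamic orexin neurons, had 0 to 12 counts in females and 1 to 13 in males.

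The 10 cortical glutamatergic markers summed to 3285 to 4088, 2233 to 2935 and 1382 to 3103 CPM in females and to 3117 to 3597, 2224 to 3059 and 1167 to 2271 CPM in males, below air in every exposed library. They were called lower for 1, 9, 0 and 9 genes, with medians of -0.65, -0.91, -0.39 and -0.94. Over all genes tested the shares called lower were 2.32%, 7.03%, 0% and 7.47%, and those called higher 1.98%, 5.03%, 0% and 6.15%. *Mef2c* was lower in the 3 comparisons with calls, and *Neurod6* and *Emx1* without nicotine in both sexes (in females -1.74 ± 0.39 and -1.08 ± 0.23). The 8 striatal projection neuron markers summed to 652 to 1537, 1469 to 1905 and 1260 to 1556 CPM in females and to 874 to 1476, 999 to 1986 and 1075 to 2965 CPM in males. They were called higher for 3, 1, 0 and 3 genes, with *Six3* among them in each of the 3, *Rgs9* in 2, and *Gpr6* and *Ppp1r1b* in 1 each (medians 0.73, 0.46, 0.39 and 0.78). Of 7 thalamus markers *Tcf7l2* and *Gbx2* were called higher in the same 3 comparisons (medians of the list 0.19, 0.50, 0.33 and 0.34). No olfactory bulb marker (medians 0.62, -0.16, -0.09 and -0.74, with *Cdhr1* and *Doc2g* the most abundant) and no brainstem monoamine marker (medians -0.12, -0.32, 0.11 and 0.17, with *Th* and *Tph2* the most abundant) was called. The part of any of these cell types in the levels of the members was not tested.

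**Figure D4:**
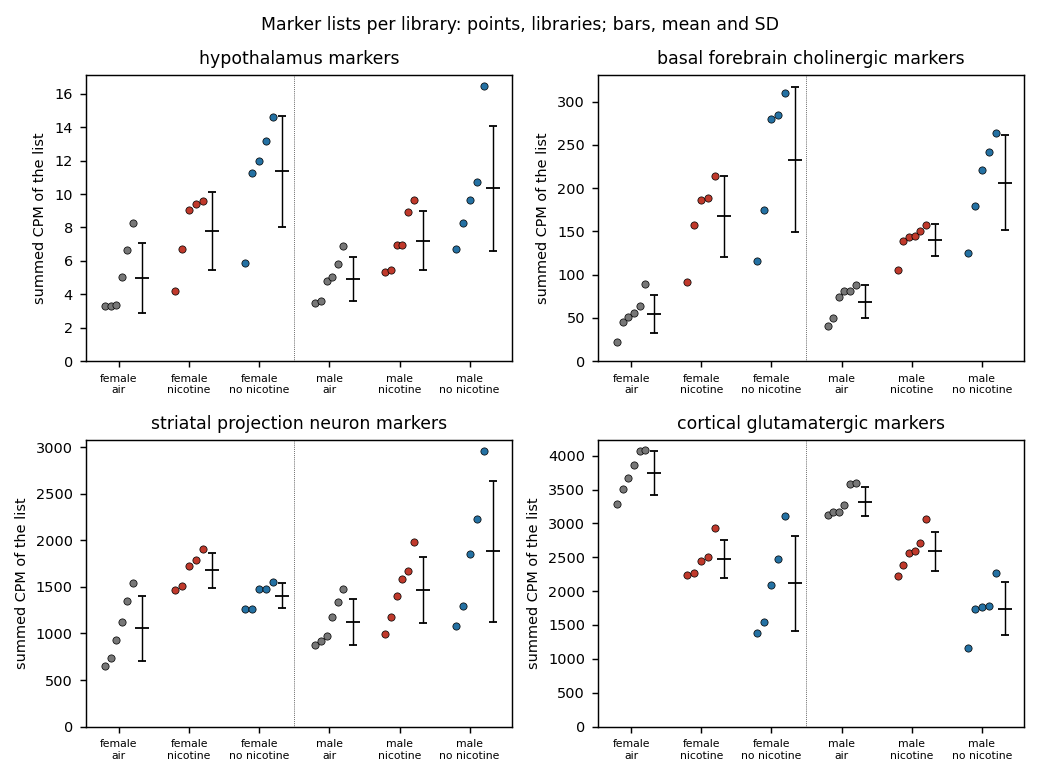
Summed CPM of the markers of hypothalamus, basal forebrain cholinergic neurons, striatal projection neurons and cortical glutamatergic neurons on linear axes, with 1 point per library and bars for the mean and SD. The basal forebrain sum is above air (at most 89.5 CPM in females and 87.8 CPM in males) and the cortical sum below air (at least 3285 and 3117 CPM) in every exposed library.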

How the data were processed

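Frontal cortex RNA was sequenced by the authors as single reads of 50 bases in 2 runs, 1 per sex. Per the labels and the study's methods, reads were mapped to the mm9 transcriptome with Bowtie, freed of duplicates with SAMtools and counted with HTSeq. The authors deposited raw counts per gene and a normalized copy of them, which was not used. The handling of reads that map to more than 1 gene is not given in the sources used here. Of 34 count columns, 33 carry the name of a labelled sample. The remaining 1 was left out. The symbols of 4 rows per table had been turned into dates.

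Genes with CPM summing to at least 5 over the libraries of a table were fitted in edgeR 4.0.16 and tested by quasi-likelihood (TMM, 3 groups of a sex in 1 fit, no covariates, Benjamini-Hochberg adjustment over all genes tested, threshold 0.01). The study used that filter and threshold with DESeq2. Fold changes are from this fit, and printed CPM are scaled by the library total, without TMM factors. Exact two-sided permutation tests used log2 CPM with a prior count of 1. The script was tested on simulated data. Alternatives were DESeq2 1.42.0, limma-voom (limma 3.58.1), other normalizations and filters, only the 2 groups compared, each library left out, the replicate number as a block, a threshold of 0.05 and a prior count of 0.25. Positions are from GENCODE (mm9) and upstream windows from RefSeq. R 4.3.3 and Python 3.11.15 were used.

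The members and the 11 gene lists were chosen with earlier results of these data known. All members are named. Per list up to 4 genes past the threshold in most comparisons with air are named, or the 2 most abundant where none passed, and for *Gal* the 5 most alike genes. Further hypothalamus markers are named beyond this rule. The values of 1 gene that this rule names are not reported here. Libraries of a group differed beyond sampling noise in all 75 pairs (chi-square per degree of freedom 4.47 to 30.9), so each was counted once. Intervals and floors cover counting error only.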

Additional observations from a re-analysis of the deposited data

Results flagged for a closer look

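Of 60 groups (10 members in 6 groups of 5 or 6 animals), 6 held an animal whose gap to the next, divided by the whole range of the group, was above the critical value of Dixon for its size. Chance gives about 1 in 20 for independent, normally distributed values. The values here are linear CPM, several from low counts, and the members share the same libraries. The number flagged is therefore not read as an excess. *Gal* stood at 0.341 CPM (8 counts) in female air replicate 2, against 0.0727 to 0.126 in the other female air animals, and *Avp* at 3.45 CPM (81 counts) in the same library, against 0.109 to 0.337. *Gal* stood at 1.85 CPM (39 counts) in male nicotine replicate 21, the library whose sex-linked transcripts go against its label, against 0.560 to 0.812. *Avp* stood at 6.89 CPM (156 counts) in male no nicotine replicate 3, against 0.967 to 2.58, and *Crh* at 10.5 CPM (251 counts) in male no nicotine replicate 4, against 6.49 to 7.55. *Adcyap1* was low in female nicotine replicate 6, at 10.02 CPM (245 counts), against 19.9 to 23.7. No member differed between the sexes in its change against air by the test of that difference.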

How the results depend on the processing

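The number of members called, 2 in each of 3 comparisons with air, depended on the setting. In nicotine females it was 1 with the replicate block (*Gal*, with 136 genes called against 651), 4 at a threshold of 0.05 (with *Grp* and *Cartpt*), and 0 to 2 on leaving out 1 library. In no nicotine females it was 4 with DESeq2 and 4 with only the 2 groups compared (with *Trh* and *Cartpt*), 7 at 0.05, and 2 to 4 on leaving out 1 library. In that comparison it was 3 with upper quartile normalization and with no filter on low counts (with *Trh*), and 3 with limma-voom (with *Cartpt*). In no nicotine males it was 4 with DESeq2 (with *Nts* and *Cartpt*), 5 with limma-voom (with *Trh* as well), 1 with a filter of 1 CPM in 5 libraries (which left *Gal* untested), 4 at 0.05, and 1 to 3 on leaving out 1 library. It was 0 in nicotine males, in nicotine against no nicotine and between the sexes in every setting run. The log2 fold change of *Tac2* with nicotine in females, 0.03, was -0.03998 with the replicate block, and on leaving out 1 library it lay between -0.07121 and 0.13. That of *Tac2* in males, likewise, lay between -0.11 and 0.06127 with nicotine and between -0.04056 and 0.16 without. Of 327 single-member values under alternatives that kept all libraries, 313 kept their direction and side of the threshold, 12 came to pass it, 1 no longer passed (*Nts*, nicotine females, replicate block) and 1 reversed. The cause of these shifts was not tested, other than that fewer samples or genes entered some fits. Replicate numbers in the female table did not pair the samples: the correlation of same-numbered libraries was above 0.1 in 4 of 14 pairs (median 0.01). Males share no numbers between groups. Low counts limit *Gal*, *Avp* and *Oxt*, with at most 8, 81 and 51 counts in a female air library.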
